A study of Homo sapiens with 12 samples.

Results

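The genes described here encode the nuclear side of Notch signalling: the DNA-binding factor RBPJ, the coactivators MAML1, MAML2 and MAML3, and the acetyltransferases KAT2B and EP300. The others are the adaptor SNW1, the corepressor SPEN, and FBXW7, which marks the Notch intracellular domain for destruction. Every probe set whose sole gene symbol in the array's annotation was one of these 9 genes was taken, which gave 9 of 19775 genes and 22 of the 54675 probe sets on the array. A probe set is a group of short oligonucleotides read together as 1 value. RNA came from MCF-10A, an established non-tumorigenic line of human breast epithelium, harvested 48 h after infection with a retrovirus. Groups of 3 arrays carried the vector alone (control), full-length wild-type Notch1, Notch1 L1601P+∆P, or NICD, the free intracellular domain, whose samples carry gfp in their description. All cells were infected, the vector controls included, and the constructs were expressed in cells that keep their own NOTCH1. In Notch1 L1601P+∆P the ∆P change is known to remove the C-terminal PEST region, and L1601P is a substitution in its heterodimerization domain. The labels call the replicates biological without saying how separately they were infected, and the p-values below therefore describe the spread among these 12 arrays, which may be technical.

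When a Notch receptor is activated, its intracellular domain is cut free and enters the nucleus. There it joins RBPJ on DNA and, with a Mastermind protein (the MAML family), forms the surface that recruits acetyltransferases such as EP300 and KAT2B. Without the intracellular domain, RBPJ holds corepressors, among them SPEN, at the same sites. The complex is taken apart when the PEST region is phosphorylated and FBXW7, the substrate-binding part of an SCF ubiquitin ligase, recognises it, so a Notch1 lacking that region escapes this step.

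Each value is a deposited log2 signal, in which a difference of 1 is a doubling. Levels are compared between groups within a probe set and never between probe sets. Errors of group means are SDs and errors of differences are standard errors of the limma fit, with n = 3 arrays per group throughout. A difference was called when limma's p, adjusted by Benjamini and Hochberg's method over the 54613 probe sets tested, was below 0.05, and intervals are 95% intervals of the difference. The introduced gene was read by NOTCH1 probe set 223508_at at 6.77 or lower with vector and between 8.72 and 9.19 with the 3 Notch1 constructs, while 218902_at rose with NICD (0.28 ± 0.06, limma adjusted p = 0.00881) and was not called with the others. The 6 mammary basal epithelial markers that were tested averaged 11.55 to 12.01 on each array, and each marker was at or above percentile 94.3 of mean signal over all probe sets. Markers of other cell types were spread over the range: PTPRC (leukocytes, 3.33 to 3.71) and CDH5 (endothelium, 3.16 to 3.72) were dim. CD3E (leukocytes) read 5.88 to 6.35, and the endothelial markers PECAM1 and VWF read 6.38 to 6.72 and 5.27 to 5.58. The 3 fibroblast markers averaged 6.09 to 6.36 on each array, with COL1A1 at 7.55 to 8.03. The average of those epithelial markers was lower with NICD (11.55 to 11.65) than with vector (11.91 to 11.97), and its part in the results below was not tested. In RNA from a whole culture, a change in the share of cells of one kind and a change of RNA per cell cannot be told apart.

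With NICD, 7 of the 22 probe sets differed from vector, 3 higher and 4 lower, and they belonged to 6 of the 9 genes. The members' share was 31.8%, where 19.3% of all probe sets were called in this comparison (6.75% higher and 12.6% lower). Among the 18 member probe sets with a mean log2 signal of at least 5, 5 were called (27.8%), where 28.3% of all such probe sets were, so that share was close to its background. After cyclic loess, another scaling of the arrays, 6 members were higher and 4 lower, where 18.3% of all probe sets were called. Among all called probe sets, the share that was higher moved from 34.9% to 49.1%. The median difference over the 22 probe sets was 0.00, beside -0.02 over all probe sets. MAML2, 1 probe set of MAML3 and 1 dim probe set of SPEN fell, and KAT2B rose, under each alternative that tested them. With Notch1 L1601P+∆P, limma called 3 probe sets lower than vector (13.6% of the members) and none higher. They belonged to 2 genes, as both MAML2 probe sets were among them, and each call was lost under at least 1 alternative. The background was 2.39% of all probe sets and 1.29% for lower calls. All 3 had a mean of at least 5, which made 16.7% of the 18 such members, where 3.57% of all such probe sets were called. At an unadjusted p under 0.05, 0 members were higher and 7 lower, where 6.75% of all probe sets were higher and 9.64% lower. With full-length Notch1 limma called 0 members and 0.011% of all probe sets. At an unadjusted p under 0.05 that comparison held 1 higher member and 0 lower, where 5.13% of all probe sets passed. These 3 comparisons share the vector arrays.

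**Figure D1:**
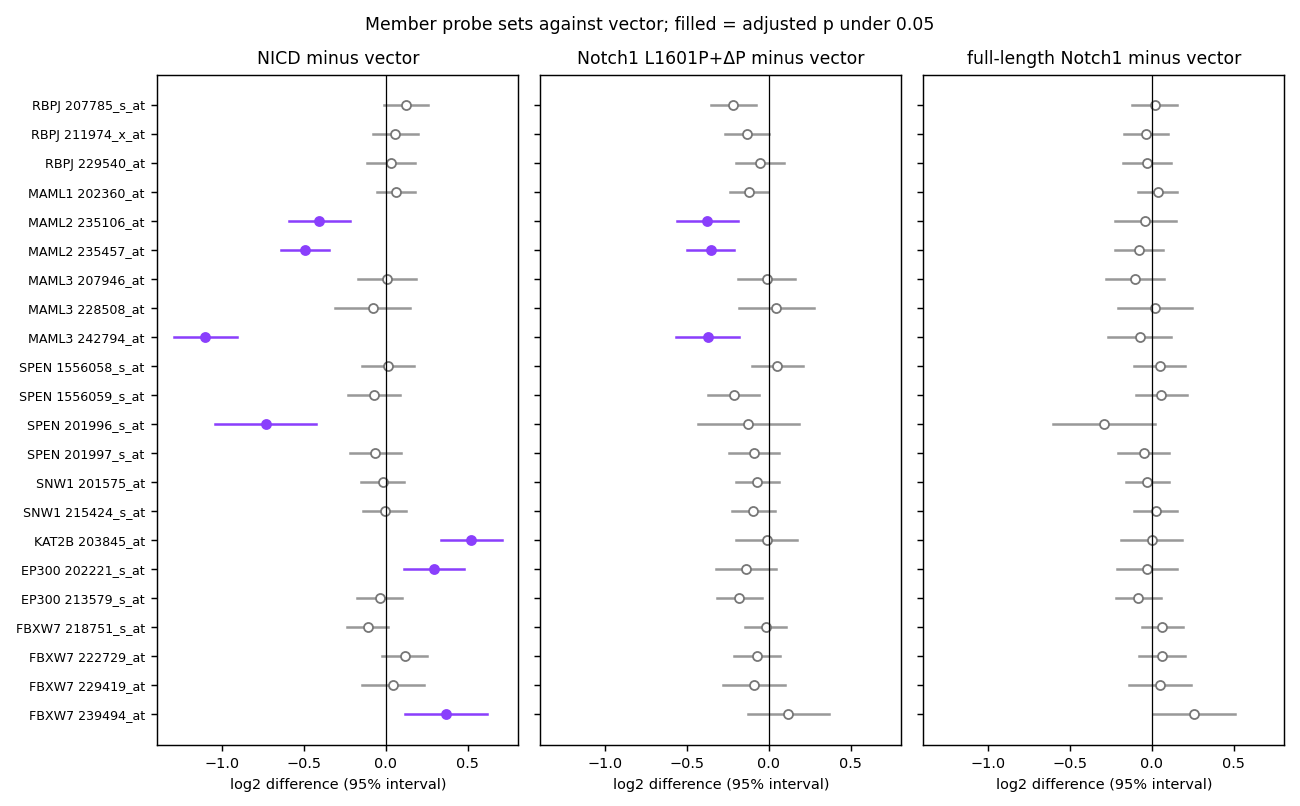
Log2 difference from vector (x axis) with its 95% interval for each of the 22 probe sets (y axis), in 1 panel per construct. Filled symbols passed an adjusted p of 0.05: 7 with NICD, 3 with Notch1 L1601P+∆P and 0 with full-length Notch1, with 242794_at of MAML3 farthest from 0 at -1.10 with NICD.

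The groups' arrays did not overlap with NICD and vector in 11 of the 22 probe sets (50% of them; 33% of all probe sets). With Notch1 L1601P+∆P they were apart in 9, in each of which the construct's arrays were the lower ones, where 14.6% of all probe sets were apart in that direction. The median of the members was -0.09 in this comparison, beside -0.01 over all probe sets and -0.03 over those with a mean of at least 5. With full-length Notch1, 3 were apart (10.6% of all probe sets).

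RBPJ, the factor that brings the complex to DNA, was lower with Notch1 L1601P+∆P than with NICD, and neither differed from vector beyond the threshold. On 207785_s_at the vector arrays read 9.24, 9.31 and 9.25, and those with full-length Notch1 9.24, 9.24 and 9.38. The arrays of Notch1 L1601P+∆P read 8.99, 9.04 and 9.14, below every other array, and with NICD 9.39, 9.41 and 9.38, the narrowest group. NICD exceeded Notch1 L1601P+∆P by 0.34 ± 0.06 (limma adjusted p = 0.00261), a call kept under each of 18 alternatives. Against vector, neither Notch1 L1601P+∆P (-0.21 ± 0.06, adjusted p = 0.107) nor NICD (0.12 ± 0.06, adjusted p = 0.21) was called. NICD was called after cyclic loess (0.22, adjusted p = 0.0156), and Notch1 L1601P+∆P with a minimum mean of 5 (adjusted p = 0.048), an intensity trend (adjusted p = 0.0244) and array weights (adjusted p = 0.0482). The brighter 211974_x_at was again lowest with Notch1 L1601P+∆P (9.73 ± 0.10) and highest with NICD (9.92 ± 0.06), and that difference of 0.19 ± 0.06 was not called (adjusted p = 0.066), though it was in 5 of 19 alternatives. The third, 229540_at, was dim at 3.83 to 3.91 in the group means and was called in no comparison. RBPJ has processed pseudogenes in the human genome, and the x in a probe set name marks probes that may also bind other transcripts, so part of the 211974_x_at signal may not be RBPJ.

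RBPJ is known to bind the letters TGGGAA, and the promoter windows of the members were searched for them on both strands, together with CACGTG and CACGCG, which HES and HEY repressors are known to bind. The 9 genes had 16 windows in the RefSeq promoter table (GRCh38.p14), each 300 bases long and spanning an annotated start. TGGGAA was present in 2 of the 16, 1 each of RBPJ and SPEN, and in 24% of all 35116 windows. CACGCG was in 2, both of RBPJ, and in 11.4% of all windows. CACGTG was in 0 of the 16 and in 7.26% of all. The RBPJ window that holds TGGGAA has it on both strands (the reverse reads TTCCCA) and also holds CACGCG, and it is shown because it carries the letters that RBPJ itself is known to read. It lies at chr4:26319496-26319795 on the plus strand, and capitals mark the matches.
RBPJ: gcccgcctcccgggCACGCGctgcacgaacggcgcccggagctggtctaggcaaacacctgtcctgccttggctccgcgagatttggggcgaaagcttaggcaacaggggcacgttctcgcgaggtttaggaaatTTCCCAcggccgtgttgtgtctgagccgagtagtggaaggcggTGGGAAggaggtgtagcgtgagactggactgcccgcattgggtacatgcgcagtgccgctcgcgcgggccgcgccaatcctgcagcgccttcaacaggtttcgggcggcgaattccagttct

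MAML1, the best-studied Mastermind coactivator, had 1 probe set, 202360_at, which varied little. The means were 9.60 ± 0.04 (vector), 9.64 ± 0.02 (full-length Notch1), 9.48 ± 0.05 (Notch1 L1601P+∆P) and 9.66 ± 0.02 (NICD). NICD differed from vector by 0.06 ± 0.05, with an interval from -0.05 to 0.18, and this became a call after cyclic loess (0.16, adjusted p = 0.0478). The difference of 0.18 ± 0.05 between NICD and Notch1 L1601P+∆P was called by limma (adjusted p = 0.043), in the same direction as for RBPJ. That call was kept in 6 of 19 alternatives, and of the 12 fits without 1 array it held in that without Notch1 L1601P+∆P replicate 3 alone (adjusted p up to 0.14).

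MAML2, a Mastermind paralog known as a fusion partner in salivary gland tumours, fell on both of its probe sets with NICD and with Notch1 L1601P+∆P. On 235457_at the vector arrays read 8.18, 8.07 and 8.07 and those with full-length Notch1 8.03, 8.14 and 7.92. Those of Notch1 L1601P+∆P read 7.78, 7.73 and 7.75, and with NICD 7.58, 7.65 and 7.62. The highest array with either of those constructs lay below the lowest vector and full-length Notch1 array, and the NICD arrays lay below those with Notch1 L1601P+∆P. MAML2 fell by 0.49 ± 0.07 on the log2 scale with NICD (0.711 of the vector level, limma adjusted p = 0.000151) and fell by 0.35 ± 0.07 with Notch1 L1601P+∆P (0.782 of it, adjusted p = 0.014).

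The dimmer MAML2 probe set, 235106_at, gave like sizes. Vector arrays read 6.63, 6.43 and 6.49, full-length Notch1 6.54, 6.43 and 6.46, Notch1 L1601P+∆P 6.04, 6.07 and 6.33, and NICD 6.02, 6.17 and 6.15. Every array with either of the last 2 constructs was below every vector and full-length Notch1 array. MAML2 differed here from vector by -0.40 ± 0.09 with NICD (limma adjusted p = 0.00443) and by -0.37 ± 0.09 with Notch1 L1601P+∆P (adjusted p = 0.0406). Both MAML2 probe sets were also lower with NICD than with full-length Notch1, by -0.42 ± 0.07 (adjusted p = 0.000628) and -0.36 ± 0.09 (adjusted p = 0.00913). Between NICD and Notch1 L1601P+∆P they were not called, with differences of -0.14 (interval -0.28 to 0.01) and -0.03 (-0.22 to 0.16).

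The NICD calls for MAML2 held under every alternative run, with adjusted p up to 0.0239 against vector and up to 0.0437 against full-length Notch1, and those for Notch1 L1601P+∆P did not. The call on 235457_at was lost without vector replicate 1 or Notch1 L1601P+∆P replicate 2 (adjusted p up to 0.0692). The call on 235106_at was kept in 6 of 18 alternatives and lost without any 1 vector or full-length Notch1 array, Notch1 L1601P+∆P replicate 1 or 2 or NICD replicate 2, after cyclic loess, with the replicate block and in the fit of 6 arrays, with adjusted p up to 0.159.

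MAML3, the third Mastermind paralog, was read by 3 probe sets that disagreed. On 242794_at vector arrays read 6.26, 6.49 and 6.53, full-length Notch1 6.30, 6.47 and 6.29, Notch1 L1601P+∆P 6.07, 6.05 and 6.05, and NICD 5.22, 5.48 and 5.27. The constructs formed separate steps, with NICD lowest, Notch1 L1601P+∆P between, and vector and full-length Notch1 overlapping at the top. The difference from vector was -1.10 ± 0.09 with NICD (0.466 of the vector level, limma adjusted p = 1.21e-06), the largest among the 22 probe sets, and -0.37 ± 0.09 with Notch1 L1601P+∆P (adjusted p = 0.0473). NICD was also below Notch1 L1601P+∆P by -0.73 ± 0.09 (adjusted p = 9.45e-05) and below full-length Notch1 by -1.03 ± 0.09 (adjusted p = 2.45e-06). The 3 NICD calls held under each of 19 alternatives. That of Notch1 L1601P+∆P against vector was kept in 8 of 19, and was lost in the fit of 6 arrays and without vector replicate 2 or 3, any 1 array with full-length Notch1 or Notch1 L1601P+∆P, or NICD replicate 1 or 3 (adjusted p up to 0.177).

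The other MAML3 probe sets were called in no comparison. With NICD, 228508_at differed from vector by -0.08 (interval -0.31 to 0.15) and 207946_at by 0.01 (-0.17 to 0.18). At 6.02 ± 0.17 with vector, 228508_at was not at the bottom of the array's range, while 207946_at at 4.60 ± 0.06 was dim. The positions of these probes along MAML3 transcripts were not analysed here. The fall is therefore described for 1 probe set, and whether MAML3 RNA as a whole fell was not tested.

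**Figure D2:**
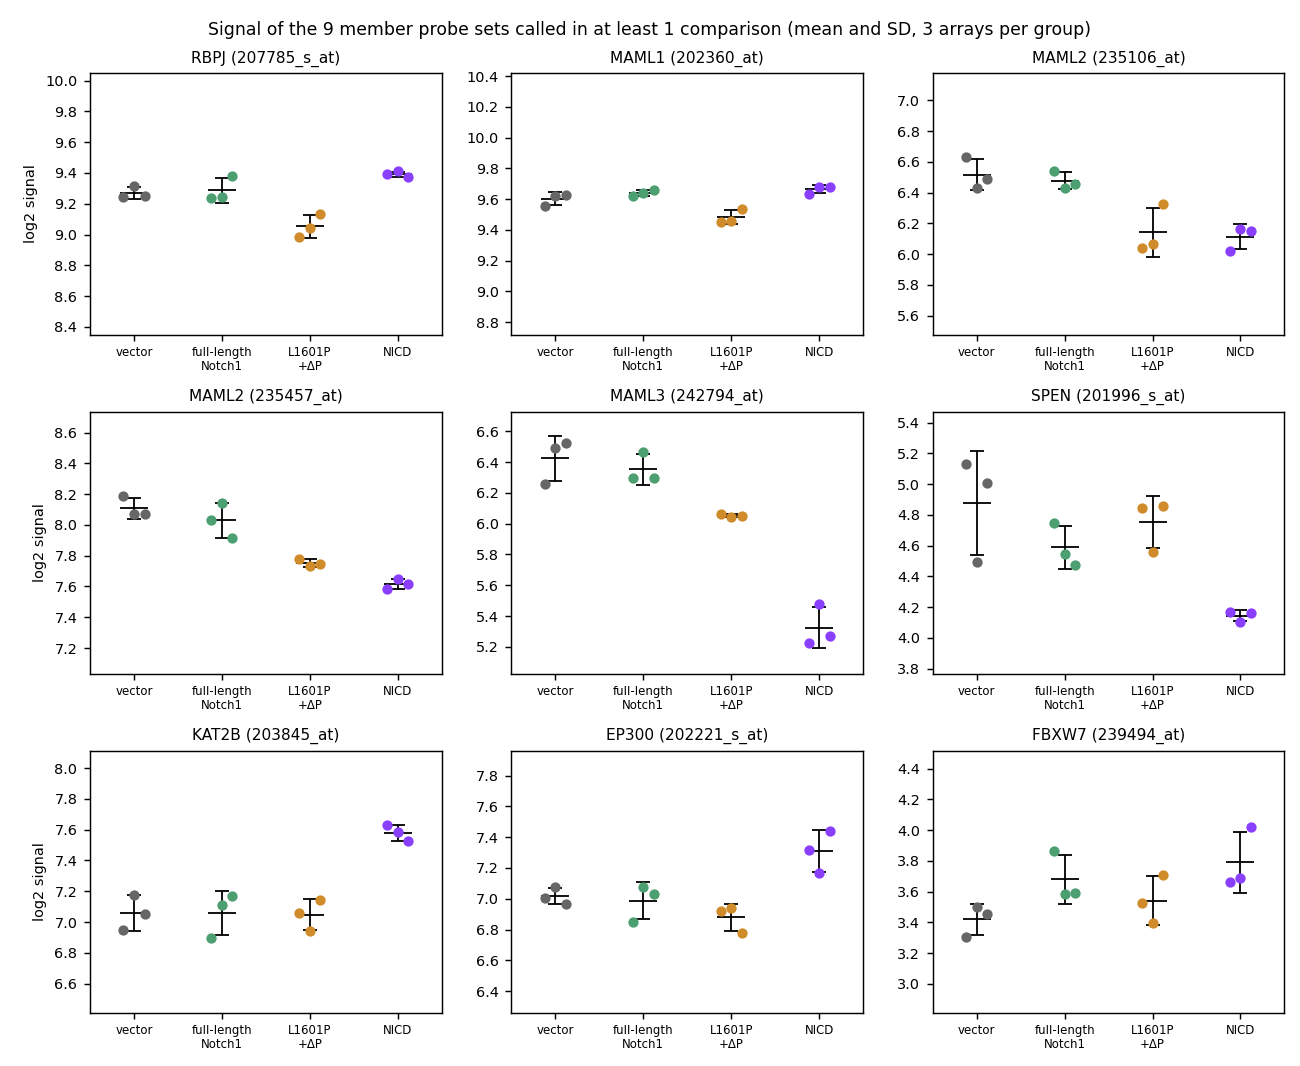
Log2 signal (y axis, the same height of 1.7 units in every panel) of the 9 probe sets called in at least 1 comparison, on each array, by construct (x axis), with the mean and SD of 3 arrays. MAML2 and 242794_at of MAML3 step down from vector to NICD, KAT2B stands higher with NICD than in the other 3 groups, and RBPJ and MAML1 have their lowest mean with Notch1 L1601P+∆P.

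The promoter windows of MAML2, which fell on both probe sets, MAML3, which fell on 1 of 3, and KAT2B, which rose on its 1 probe set, are shown as the starts of the genes whose called differences between NICD and vector were largest among probe sets with a mean of at least 5. Each gene had 1 window, and none of the 3 holds TGGGAA or either of the HES and HEY motifs on either strand, so no letter is in capitals. MAML2 lies at chr11:96343146-96343445 and MAML3 at chr4:140154135-140154434, both on the minus strand, and KAT2B at chr3:20040196-20040495 on the plus strand (GRCh38.p14, RefSeq).
MAML2: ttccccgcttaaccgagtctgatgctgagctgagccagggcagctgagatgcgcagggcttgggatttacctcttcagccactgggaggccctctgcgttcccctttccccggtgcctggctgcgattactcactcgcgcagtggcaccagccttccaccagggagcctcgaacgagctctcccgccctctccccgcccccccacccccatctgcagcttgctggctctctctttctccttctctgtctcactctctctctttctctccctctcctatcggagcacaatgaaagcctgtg
MAML3: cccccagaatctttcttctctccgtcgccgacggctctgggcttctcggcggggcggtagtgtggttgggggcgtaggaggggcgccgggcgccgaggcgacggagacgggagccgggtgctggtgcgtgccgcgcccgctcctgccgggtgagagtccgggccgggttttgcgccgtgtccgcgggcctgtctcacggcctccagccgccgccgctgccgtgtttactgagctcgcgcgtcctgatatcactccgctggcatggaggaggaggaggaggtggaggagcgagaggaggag
KAT2B: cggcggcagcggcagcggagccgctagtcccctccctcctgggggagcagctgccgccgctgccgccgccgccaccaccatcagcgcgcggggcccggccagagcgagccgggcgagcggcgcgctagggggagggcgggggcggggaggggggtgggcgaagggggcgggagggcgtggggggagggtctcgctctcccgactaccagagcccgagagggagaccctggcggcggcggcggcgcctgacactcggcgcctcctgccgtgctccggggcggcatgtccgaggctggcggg

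KAT2B, the acetyltransferase also called PCAF, rose with NICD. Its 1 probe set, 203845_at, read 6.95, 7.18 and 7.05 on the vector arrays and 6.90, 7.11 and 7.17 on those of full-length Notch1. It read 7.06, 6.94 and 7.14 with Notch1 L1601P+∆P, and 7.63, 7.59 and 7.53 with NICD. Every NICD array was above all 9 others, and the other 3 groups overlapped. The rise over vector was 0.52 ± 0.09, or 1.44-fold (limma adjusted p = 0.000748). NICD was higher than Notch1 L1601P+∆P by 0.53 ± 0.09 (adjusted p = 0.00101) and than full-length Notch1 by 0.52 ± 0.09 (adjusted p = 0.000798). Notch1 L1601P+∆P and vector differed by -0.01, with an interval from -0.20 to 0.18. All 3 KAT2B calls held under each of 19 alternatives, with differences from 0.44 to 0.59.

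EP300, the acetyltransferase p300 that the ternary complex recruits, rose on 1 of 2 probe sets. On 202221_s_at vector arrays read 7.01, 7.07 and 6.97, full-length Notch1 6.85, 7.08 and 7.03, Notch1 L1601P+∆P 6.92, 6.94 and 6.78, and NICD 7.32, 7.17 and 7.44. Its NICD arrays lay above all 9 others, and the Notch1 L1601P+∆P arrays lay below the vector arrays and overlapped with those of full-length Notch1. The differences from NICD were 0.29 ± 0.08 over vector (limma adjusted p = 0.0261), 0.43 ± 0.08 over Notch1 L1601P+∆P (adjusted p = 0.00386) and 0.32 ± 0.08 over full-length Notch1 (adjusted p = 0.0169). The call against vector was lost in the fit of 6 arrays and without vector replicate 1 or 3 or NICD replicate 1 or 3 (adjusted p up to 0.102). That against full-length Notch1 was lost in the fit of 6 arrays and without full-length Notch1 replicate 1 or NICD replicate 1 or 3 (adjusted p up to 0.0745). On 213579_s_at, EP300 differed from vector by -0.04 with NICD (interval -0.17 to 0.10) and was called in no comparison.

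SNW1, the adaptor also called SKIP, a splicing factor that is known to contact the Notch complex, was called in no comparison. Its probe sets 201575_at and 215424_s_at had group means of 10.62 to 10.68 and of 9.95 to 10.07. Their differences from vector with NICD were -0.02 (interval -0.15 to 0.11) and -0.01 (-0.14 to 0.12).

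SPEN, the large RNA-binding corepressor also called SHARP that competes with the intracellular domain for RBPJ, was lower with NICD on its dimmest probe set. On 201996_s_at vector arrays read 5.13, 4.49 and 5.01, full-length Notch1 4.74, 4.55 and 4.47, Notch1 L1601P+∆P 4.85, 4.56 and 4.86, and NICD 4.17, 4.10 and 4.16. NICD arrays were below all others, while vector replicate 2 lay within the range of full-length Notch1. The difference from vector was -0.73 ± 0.14 (limma adjusted p = 0.00249) and held under each of 17 alternatives. Against Notch1 L1601P+∆P it was -0.61 ± 0.14 (adjusted p = 0.0126), and this call was lost without Notch1 L1601P+∆P replicate 1 or 3 (adjusted p up to 0.0538). Against full-length Notch1 it was -0.44 ± 0.14 (adjusted p = 0.0483), kept in 6 of 17 alternatives and lost after cyclic loess, with array weights and without any 1 full-length Notch1 or NICD array, vector replicate 3 or Notch1 L1601P+∆P replicate 1 or 3 (adjusted p up to 0.158).

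The other 3 SPEN probe sets were brighter and were called in no comparison. On 201997_s_at, the brightest, SPEN stood at 9.36 ± 0.06 with vector and 9.30 ± 0.10 with NICD, a difference of -0.06 with an interval from -0.22 to 0.09. On 1556059_s_at it was lowest with Notch1 L1601P+∆P, at 7.34 ± 0.02 beside 7.56 ± 0.06 with vector, and that difference of -0.21 was not called (adjusted p = 0.165). On 1556058_s_at the group means spanned 6.42 to 6.47.

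FBXW7, the ligase subunit that binds the phosphorylated PEST region, was higher with NICD only on a probe set near the lowest signals of the array. On 239494_at vector arrays read 3.31, 3.50 and 3.45, full-length Notch1 3.87, 3.59 and 3.59, Notch1 L1601P+∆P 3.53, 3.39 and 3.71, and NICD 3.67, 3.69 and 4.02. NICD arrays were above the vector arrays and overlapped with the other 2 groups. The difference of 0.37 ± 0.11 from vector (limma adjusted p = 0.0397) was kept in 10 of 17 alternatives, and was lost in the fit of 6 arrays, with array weights and without any 1 vector array, Notch1 L1601P+∆P replicate 1 or NICD replicate 3 (adjusted p up to 0.153).

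The 3 bright FBXW7 probe sets were called in no comparison. With NICD, 229419_at differed from vector by 0.04 (interval -0.14 to 0.23), 222729_at by 0.11 (-0.02 to 0.25) and 218751_s_at by -0.11 (-0.24 to 0.02). The last 2 had NICD arrays apart from the vector arrays in opposite directions, so their FBXW7 values disagreed in sign. After cyclic loess 222729_at was called (0.20, adjusted p = 0.0488). With Notch1 L1601P+∆P, the construct without the region that FBXW7 reads, these 3 differed from vector by -0.09, -0.07 and -0.02, each with an interval that includes 0. Against full-length Notch1, NICD differed on 218751_s_at by -0.18 (limma adjusted p = 0.0546), called in 4 of 18 alternatives. Against Notch1 L1601P+∆P, NICD differed on 222729_at by 0.19 (adjusted p = 0.0786), called in 3 of 18.

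**Figure D3:**
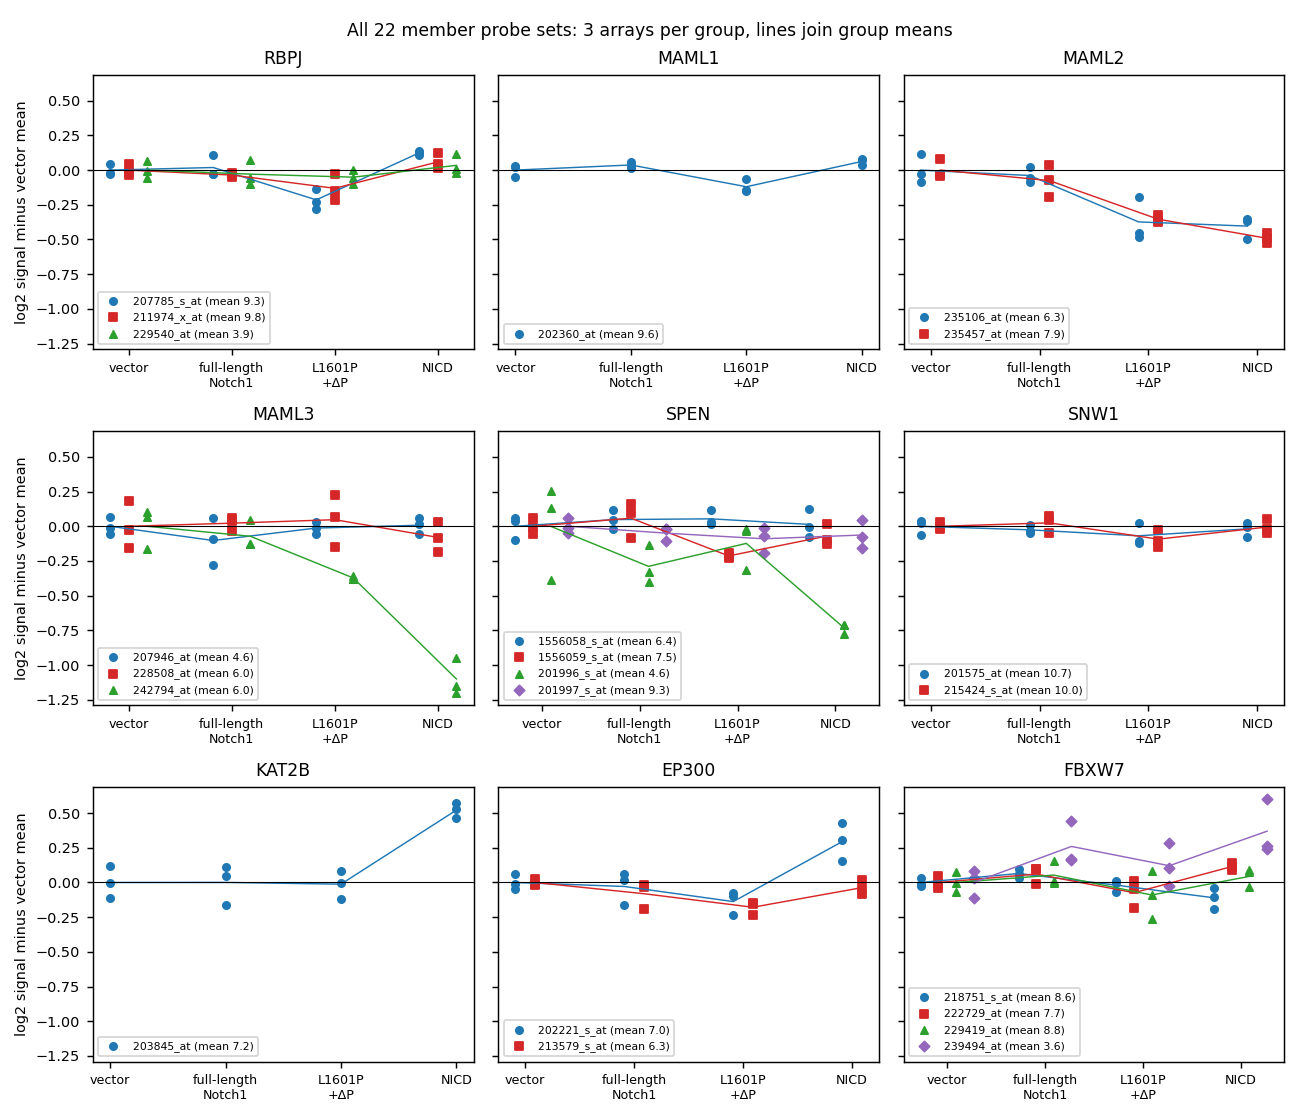
Log2 signal minus the probe set's vector mean (y axis, shared) on each of 3 arrays per construct (x axis) for all 22 probe sets, 1 panel per gene, with lines joining group means. The MAML2 probe sets run together, whereas those of MAML3, SPEN, EP300 and FBXW7 part with NICD, and SNW1 stays within 0.15 of its vector means.

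Between constructs, 6 member probe sets were called for NICD against Notch1 L1601P+∆P, 4 higher with NICD (RBPJ, MAML1, KAT2B and EP300) and 2 lower (MAML3 and SPEN). The background there was 13% of all probe sets, 6.04% higher and 7.01% lower, beside 27.3% of the members. With a mean of at least 5, 5 of 18 members were called (27.8%), where 19.1% of all such probe sets were. For NICD against full-length Notch1, 6 were called (27.3%), 2 higher (KAT2B and EP300) and 4 lower (both of MAML2, MAML3 and SPEN). There 18.2% of all probe sets were called, 7.14% higher and 11.1% lower. Among those with a mean of at least 5, 5 of 18 members were called (27.8%), close to the 26.7% of all such probe sets. Between Notch1 L1601P+∆P and full-length Notch1, limma called 0 members and 1.63% of all probe sets, and at an unadjusted p under 0.05 it held 0 higher members and 6 lower, where 7.41% of all probe sets were higher and 7.27% lower. The 2 MAML2 probe sets came nearest in that comparison, at -0.28 ± 0.07 (adjusted p = 0.0642) and -0.33 ± 0.09 (adjusted p = 0.0843), with MAML2 lower on every Notch1 L1601P+∆P array than on any full-length Notch1 array.

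The wider nuclear Notch machinery was read from 3 lists with 51 genes, of which 45 were tested on their brightest probe set and 6 were not analysed here. With NICD, 16 of the 45 were called (35.6%), 6 higher and 10 lower, where 24.2% of all genes were called on their brightest probe set, 8.46% higher and 15.8% lower. Among all probe sets, not genes, with a mean of at least 5, 28.3% were called in this comparison. Of 10 coactivators and mediator subunits, 1 rose and 1 fell. The chromatin remodelling subunit PBRM1 rose by 0.21 ± 0.06 (limma adjusted p = 0.0228) on 1 of its 6 probe sets, and the arginine methyltransferase CARM1 fell by 0.35 ± 0.09 (adjusted p = 0.0168). The coactivator median was -0.03, beside -0.02 over all genes.

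Of 18 tested corepressors and chromatin partners, 4 rose and 4 fell with NICD, with a median of -0.02. ATXN1, a polyglutamine protein that binds RBPJ, went from 7.08 ± 0.11 to 7.89 ± 0.09, a rise of 0.81 ± 0.07 (limma adjusted p = 2.7e-06). Its 5 probe sets disagreed, with 3 called and differences from -0.32 to 0.81. TBL1X, a subunit of the NCoR corepressor complexes, rose by 0.57 ± 0.12 (adjusted p = 0.00352) on 1 of 6 probe sets, and the Groucho-type corepressor TLE3 by 0.33 ± 0.06 (adjusted p = 0.00242) on 1 of 4. The corepressor CTBP2 fell on all 6 of its probe sets, by 0.34 ± 0.06 on the brightest (adjusted p = 0.000604), the deacetylase HDAC1 fell by 0.33 ± 0.06 (adjusted p = 0.00184) and TBL1XR1, a paralog of TBL1X, fell by 0.20 ± 0.06 (adjusted p = 0.0339), with 2 of its 6 probe sets called and differences from -0.35 to 0.11.

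Of 17 tested genes of turnover and modification, 1 rose and 5 fell with NICD, with a median of -0.03. DTX4, a Deltex ubiquitin ligase of Notch, went from 9.27 ± 0.06 to 8.44 ± 0.10 on its 1 probe set, or 0.563 of the vector level (limma adjusted p = 1.02e-06). The kinase GSK3B fell by 0.34 ± 0.06 (adjusted p = 0.00109), with 3 of 5 probe sets called and differences from -0.46 to 0.08. The endocytic kinase AAK1 fell by 0.33 ± 0.08 (adjusted p = 0.00823), with 2 of 7 called and differences from -0.33 to 0.12, and DTX3L, another Deltex ligase, rose by 0.27 ± 0.06 (adjusted p = 0.00419). With Notch1 L1601P+∆P, DTX4 was the 1 gene of the 45 that was called (2.22%; 3.4% of all genes), at 8.97 ± 0.04, a difference of -0.29 ± 0.07 (adjusted p = 0.0361). That call was lost after cyclic loess, with the replicate block and in the fit of 6 arrays. DTX4 was lower still with NICD than with Notch1 L1601P+∆P (-0.54 ± 0.07, adjusted p = 9.63e-05). With full-length Notch1, limma called 0 of the 45 genes, beside 0.0202% of all genes, and at an unadjusted p under 0.05 it had 0 higher and 1 lower.

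**Figure D4:**
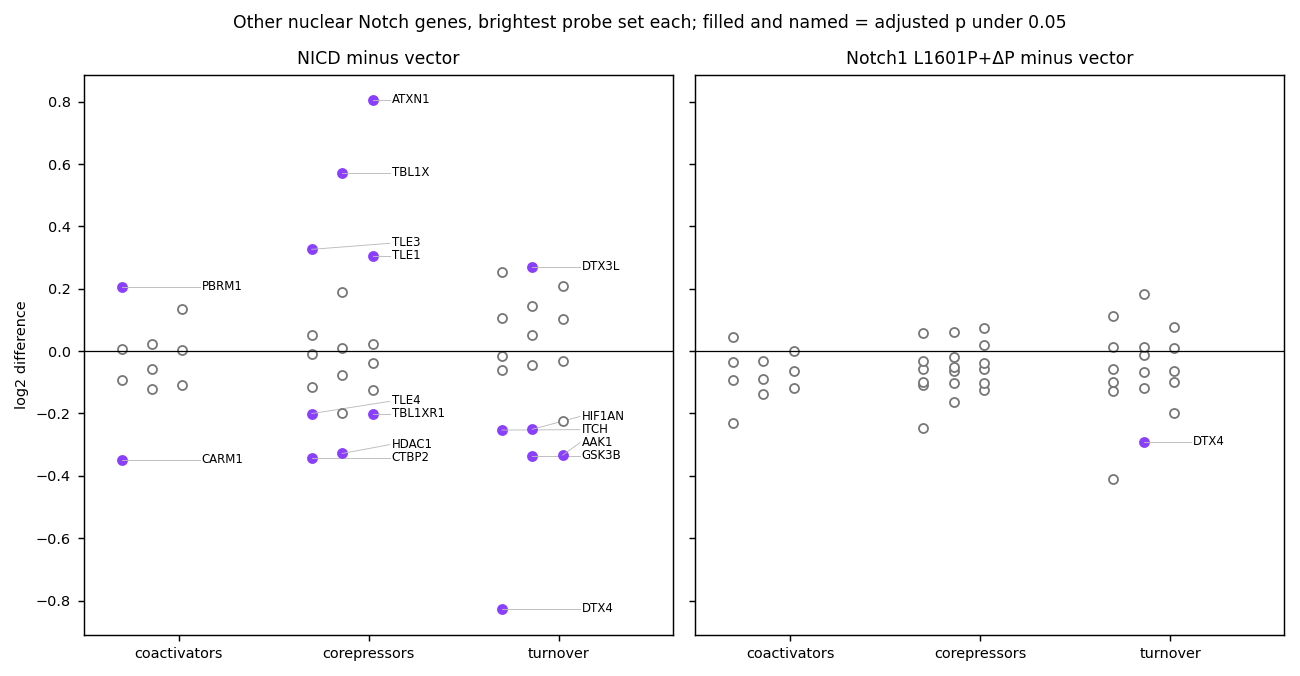
Log2 difference from vector (y axis) of the 45 tested genes of the 3 lists (x axis), brightest probe set of each, with NICD (left) and Notch1 L1601P+∆P (right). Filled, named points passed an adjusted p of 0.05, 16 with NICD and 1 with Notch1 L1601P+∆P, and DTX4 is named in both.

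For each member whose brightest probe set was called with NICD, the gene with the most similar signal over the 12 arrays was looked up, as a description. It was FANCE for MAML2 (Pearson r = 0.962), MRPL24 for 242794_at of MAML3 (0.993), PPP3CA for KAT2B (0.989) and NAPB for EP300 (0.977). The 12 points fall into 4 groups that share a construct. The value of r was above 0.9 for 1543 genes with MAML3, 395 with KAT2B, 226 with MAML2 and 50 with EP300, so other genes share each of these profiles.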

How the data were processed

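RNA of 12 samples was hybridised to Affymetrix arrays, 1 array per sample. The deposited log2 values were made by the authors with RMA (background correction, quantile normalization, summary per probe set), and limma was also used, per the submitters' processing notes, with versions not given in the sources used here. They ran from 2.27 to 15.01, with array medians of 5.64 to 5.70. Quantile normalization gives the arrays nearly 1 distribution, so a shift of most genes cannot be seen, and dim signals are compressed. Depth has no counterpart on arrays, whose number limits the precision.

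The 62 Affymetrix controls were left out. limma 3.58.1 in R 4.3.3 (lmFit, contrasts, eBayes) was fitted to the remaining 54613 probe sets with group means over all 12 arrays, and 6 two-sided comparisons were read from it. Gene symbols came from the platform annotation, and those of all 9 members matched RefSeq. For the lists, 1 probe set per gene was used, that with the highest mean. Named genes were all members and, per list and direction, up to 3 called genes with the largest differences from vector. Marker and gene lists and members were chosen with earlier results of these data known. The fit was tested on simulated data for NICD against vector, with 50 probe sets changed by each size and direction. It called 98% of those changed by 1 and 60% to 62% of those changed by 0.5, with 9 false calls. Smaller changes were not simulated. Alternatives were 1 probe set per gene, a minimum mean of 5, cyclic loess, a replicate block, fits of the 6 arrays compared, an intensity trend, array weights and leaving out each array.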

Additional observations from a re-analysis of the deposited data

How the results depend on the processing

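Of 22 member calls over the 6 comparisons, 13 were kept under every alternative run and 9 were lost under at least 1, and none changed sign; 13 further differences were called under at least 1 alternative. With 1 probe set per gene, 9 member probe sets remained. Of these, 4 were called for NICD against vector, beside 27.6% of all genes, and 1 for Notch1 L1601P+∆P against full-length Notch1, beside 3.72%. In the latter comparison 4 were called with a minimum mean of 5, 3 with an intensity trend and 4 with array weights. The shares over all probe sets tested there were 4.09%, 3.05% and 2.64%. In the fit of the 6 arrays compared, 1 member was called for Notch1 L1601P+∆P against vector, where 1.5% of all probe sets were. Without 1 array, 0 to 2 were called in that comparison and 0 to 1 for Notch1 L1601P+∆P against full-length Notch1. Over all probe sets, 1.3% to 2.61% and 0.804% to 1.76% were called in these fits. With the replicate block, 7, 2 and 0 members were called against vector (NICD, Notch1 L1601P+∆P and full-length Notch1). Over all probe sets the block called 17.9%, 1.77% and 0.011%. The numbers were not taken as pairs. With each probe set's group mean subtracted, r over 18 same-numbered pairs of arrays ran from -0.202 to 0.237, with 2 over 0.1. On those values, 0 of 12 arrays correlated best, on average over the other groups, with its own number.

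Of the other nuclear Notch genes, the fit of 6 arrays called 10 for NICD against vector and 4 for NICD against Notch1 L1601P+∆P. It called 11 for NICD against full-length Notch1 and 0 for Notch1 L1601P+∆P against vector or full-length Notch1. Over all probe sets, not genes, that fit called 15.1%, 9.16%, 14%, 1.5% and 0.954% in these comparisons. A minimum mean of 5 gave 14 for NICD against Notch1 L1601P+∆P (9 otherwise) and 2 for Notch1 L1601P+∆P against vector. There 23.8% and 5.72% of all probe sets tested were called. For Notch1 L1601P+∆P against vector, cyclic loess and the block gave 0, beside 2.16% and 1.77% of all probe sets. The block also gave 0 for Notch1 L1601P+∆P against full-length Notch1, beside 1.11%. By construction, fewer arrays enter the fit of 6 and fewer probe sets that with a minimum mean. Cyclic loess and the block keep all 12 arrays and all 54613 probe sets. Why the counts changed was not tested. Dim probe sets such as 201996_s_at of SPEN and 239494_at of FBXW7 lie below the minimum mean and have no value there.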

Other observations

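Between NICD and full-length Notch1, 18 of the 45 other nuclear Notch genes tested were called (40%, where 23.2% of all genes were), 9 higher and 9 lower with NICD. Among all probe sets, not genes, with a mean of at least 5, 26.7% were called in this comparison. L3MBTL3, a methyl-lysine reader that binds RBPJ as a corepressor, was higher by 0.24 ± 0.06 (limma adjusted p = 0.0201). NUMBL, a paralog of the Notch inhibitor NUMB, was higher by 0.36 ± 0.08 (limma adjusted p = 0.00506) on 1 of its 2 probe sets. SAP30, a subunit of Sin3 deacetylase complexes, was higher by 0.20 ± 0.06 (limma adjusted p = 0.0419) on 1 of 4. These 3 were named after their values were seen, as genes called here and not against vector (adjusted p = 0.656, 0.0872 and 0.0505 in that comparison), and whether the comparisons differ was not tested. Both comparisons share the NICD arrays.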
